A study of Mus musculus with 2 samples.

Results

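The secretory lineage transcription factors *Atoh1*, *Spdef*, *Gfi1*, *Gfi1b*, *Pou2f3*, *Neurod1*, *Neurog3*, *Foxa1*, *Foxa2* and *Foxa3* were followed across the cell types of the mouse ileal epithelium and between genotypes. They were chosen by gene symbol, each symbol matched 1 row of the count matrix, and together they make up 10 of its 27998 genes. The cells came from the ileum of undamaged C57BL/6 mice aged 8 weeks, either WT or lacking *Tnfaip8* (*Tipe0*-/-, also labelled TNFAIP8-/- and TKO). Cells of 3 mice were pooled for each genotype, so there is 1 single-cell RNASeq library per genotype, and no test between genotypes was possible. All intervals below are 95% intervals for counting error only.

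In the intestinal crypt, Notch signaling decides between absorptive and secretory fates, and cells that escape it switch on the basic helix-loop-helix factor Atoh1, which opens the secretory program. Further factors then direct the branches: Spdef and Gfi1 act in goblet and Paneth cells, Neurog3 and then Neurod1 in hormone-producing enteroendocrine cells, and the POU factor Pou2f3 with the zinc finger protein Gfi1b in chemosensory tuft cells. Foxa1, Foxa2 and Foxa3 are forkhead proteins that bind DNA in gut endoderm and its derivatives, and Foxa1 and Foxa2 take part in goblet and enteroendocrine differentiation.

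The start regions of the factors on which the results below turn are shown for reference. *Atoh1* and *Spdef* lay on opposite sides of the typical gene between genotypes, *Neurog3* and *Foxa2* had the largest ratios in *Tipe0*-/- cells, and *Foxa1* is the forkhead paralog with which *Foxa2* is compared. Each is the stretch just before the RefSeq transcription start (GRCm38.p6, 5′ to 3′ on the strand of the gene), without bases that the GENCODE annotation counts as exon. For *Foxa2* the most upstream of 3 RefSeq starts was taken, and the RefSeq start of *Foxa1* lies 805 bases inside the GENCODE span of the gene. Capitals mark matches on either strand to the E-box CANNTG, to which basic helix-loop-helix factors bind, to the forkhead motif TGTTTAC, or to AAATCA, which holds the core bound by Gfi1 and Gfi1b.
Atoh1, chr6:64728875-64729124, + strand: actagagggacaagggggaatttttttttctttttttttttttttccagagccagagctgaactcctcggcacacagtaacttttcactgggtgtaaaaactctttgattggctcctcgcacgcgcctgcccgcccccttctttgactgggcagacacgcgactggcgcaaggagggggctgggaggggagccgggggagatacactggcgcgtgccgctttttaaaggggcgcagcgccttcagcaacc
Spdef, chr17:27728956-27729201, - strand: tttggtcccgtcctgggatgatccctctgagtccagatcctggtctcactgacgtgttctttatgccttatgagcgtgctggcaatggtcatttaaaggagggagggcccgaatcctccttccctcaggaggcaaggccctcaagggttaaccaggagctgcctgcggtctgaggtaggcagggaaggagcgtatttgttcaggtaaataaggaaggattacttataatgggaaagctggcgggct
Neurog3, chr10:62132840-62133089, + strand: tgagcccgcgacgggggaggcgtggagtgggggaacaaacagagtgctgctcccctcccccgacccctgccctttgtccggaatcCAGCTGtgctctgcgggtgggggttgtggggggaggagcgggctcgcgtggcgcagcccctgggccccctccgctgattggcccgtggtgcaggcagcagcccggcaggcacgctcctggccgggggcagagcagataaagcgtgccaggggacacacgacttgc
Foxa1, chr12:57546122-57546361, - strand: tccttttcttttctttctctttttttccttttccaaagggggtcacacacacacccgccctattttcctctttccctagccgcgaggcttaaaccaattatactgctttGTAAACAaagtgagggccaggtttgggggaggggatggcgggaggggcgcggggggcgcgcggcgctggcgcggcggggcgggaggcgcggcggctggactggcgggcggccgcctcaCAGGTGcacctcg
Foxa2, chr2:148046970-148047219, - strand: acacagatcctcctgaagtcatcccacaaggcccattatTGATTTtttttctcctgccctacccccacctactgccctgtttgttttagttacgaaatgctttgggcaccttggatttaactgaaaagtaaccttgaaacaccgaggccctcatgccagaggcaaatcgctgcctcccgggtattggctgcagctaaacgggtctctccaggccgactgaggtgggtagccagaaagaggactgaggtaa
The *Neurog3* stretch held an E-box that began 165 bases before the start, and *Foxa1* held a forkhead match 141 bases and an E-box 23 bases before it. *Foxa2* held an AAATCA match 211 bases before the start, and *Atoh1* and *Spdef* held none of these motifs. Start regions of 250 bases were found for 9 of the 10 factors (12 regions, all but *Pou2f3*). An E-box was present in 8 of the 12 (66.7%), beside 66.2% of all 32851 mouse start regions of the same length. The forkhead motif was present in 1 of the 12 and in 3.17% of all regions, AAATCA in 2 of the 12 and 12.4% of all regions and the octamer ATGCAAAT of POU factors in none of the 12 and 1.6% of all regions. These matches are descriptions of the letters and not binding sites.

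Depth was 38127808 UMIs (unique molecular identifiers, 1 per captured mRNA molecule) over 3402 WT cells and 23897126 UMIs over 2006 *Tipe0*-/- cells, with medians per cell of 7760 and 7308. Mitochondrial transcripts were 6.59% of WT and 8.56% of *Tipe0*-/- UMIs, and 9 cell barcodes occurred in both libraries. *Tnfaip8* itself was counted 372 times in WT (9.76 CPM, counts per 1000000 UMIs) and 57 times in *Tipe0*-/- cells (2.39 CPM), a log2 ratio of -2.02 (-2.46 to -1.63). Clustering without the 10 factors gave 18 clusters, which were grouped into classes by marker genes. Goblet-like cells were 15.6% of WT and 16.5% of *Tipe0*-/- cells, Paneth-like 8.41% and 6.98%, tuft-like 4.09% and 2.14%, enteroendocrine-like 1.23% and 1.35%, and stem-like 9.73% and 13.4%. The labels call all cells enterocytes, yet enterocyte-like clusters held only 20.9% of WT and 17.5% of *Tipe0*-/- cells.

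In the secretory classes 5 factors stood out in a single class. Of the 9 factors with a total of at least 50 UMIs, *Atoh1* and *Spdef* were at least 4-fold higher in goblet-like cells than in all other cells in each library, which held for 0.712% of 11665 genes. *Neurod1* and *Neurog3* met the same criterion in enteroendocrine-like cells (1.52% of genes) and *Pou2f3* in tuft-like cells (1.17% of genes), while no factor met it in Paneth-like cells (0.514% of genes). *Gfi1*, *Foxa1*, *Foxa2* and *Foxa3* met it in none of these 4 classes. *Gfi1* was 3.18-fold higher in goblet-like cells and 1.28-fold in Paneth-like cells (the lower fold of both libraries), and it met the criterion in lymphocyte-like cells (5.74-fold), there on 4 and 1 UMIs.

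**Figure D1:**
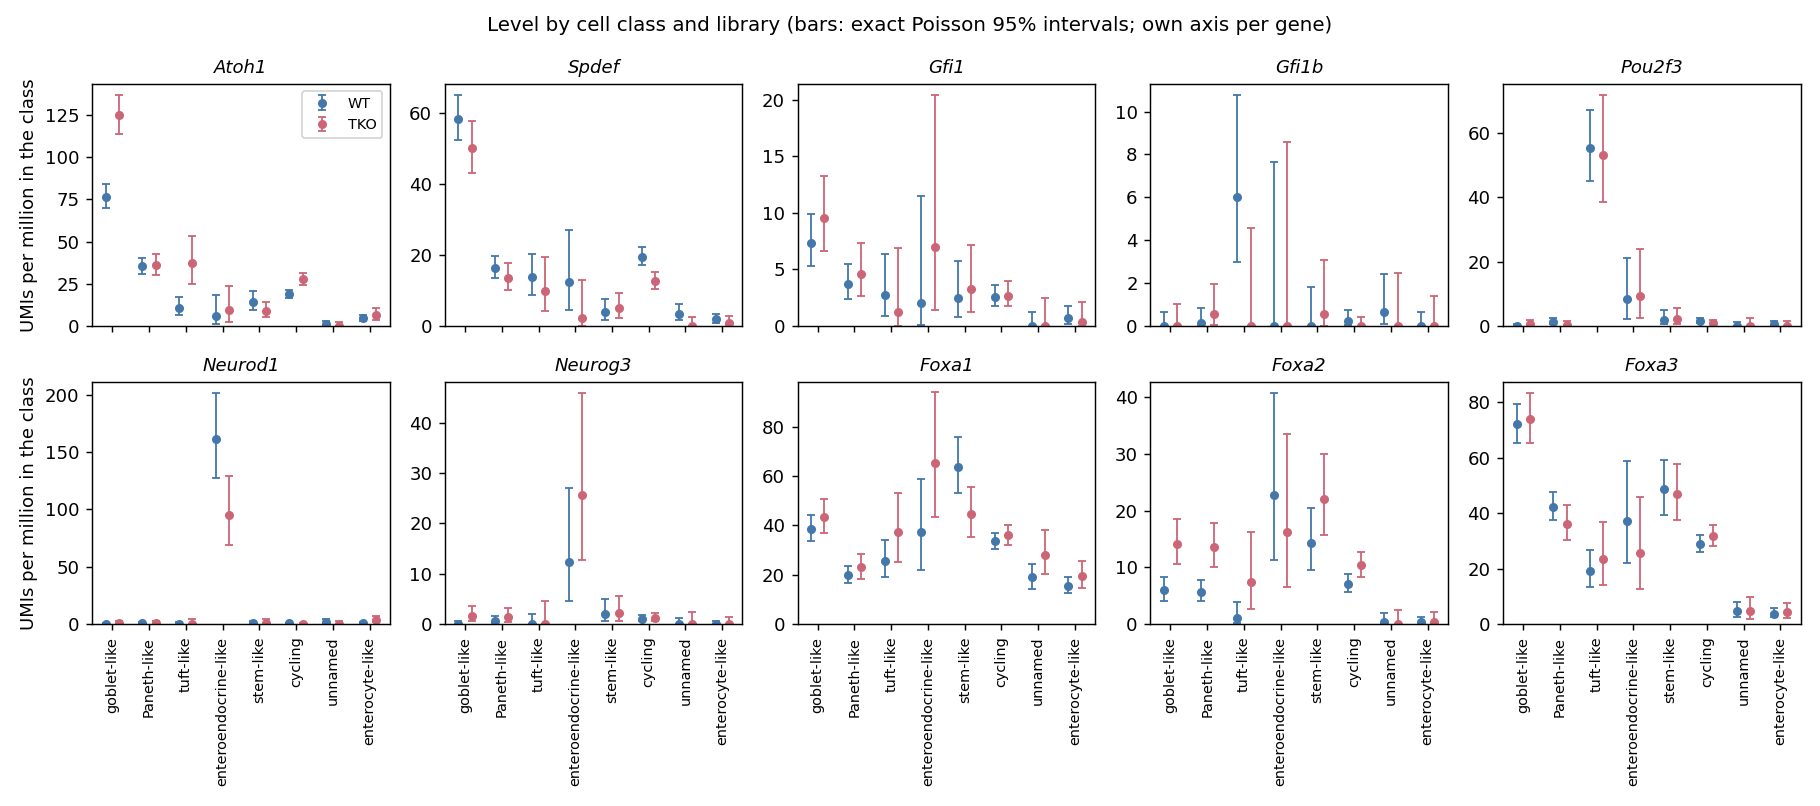
Level of each factor (CPM within the class, own linear axis per gene) in 8 cell classes of the WT (blue) and TKO, that is *Tipe0*-/-, library (red), with exact Poisson 95% intervals. *Pou2f3* and *Neurod1* each stand out in a single class, *Atoh1* and *Spdef* are highest in goblet-like cells, and *Foxa1* is spread over all classes shown.

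Between genotypes some factors were higher in *Tipe0*-/- cells and others lower. Ratios are given as log2 of the CPM in *Tipe0*-/- over WT and are read against the median of all 11665 genes with at least 50 UMIs, which was 0.15 rather than 0. A factor was called higher or lower when it lay 0.5 or more from that median. Among the 9 factors with at least 50 UMIs, 2 were called higher (*Foxa2* and *Neurog3*, beside 6.22% of all genes) and 1 lower (*Pou2f3*, beside 8.51%), and the median over the 9 was 0.22. The counting interval lay wholly above the median of all genes for 3 factors (*Atoh1*, *Foxa2* and *Neurog3*, beside 23.1% of genes) and wholly below it for 2 (*Spdef* and *Pou2f3*, beside 27.8%).

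**Figure D2:**
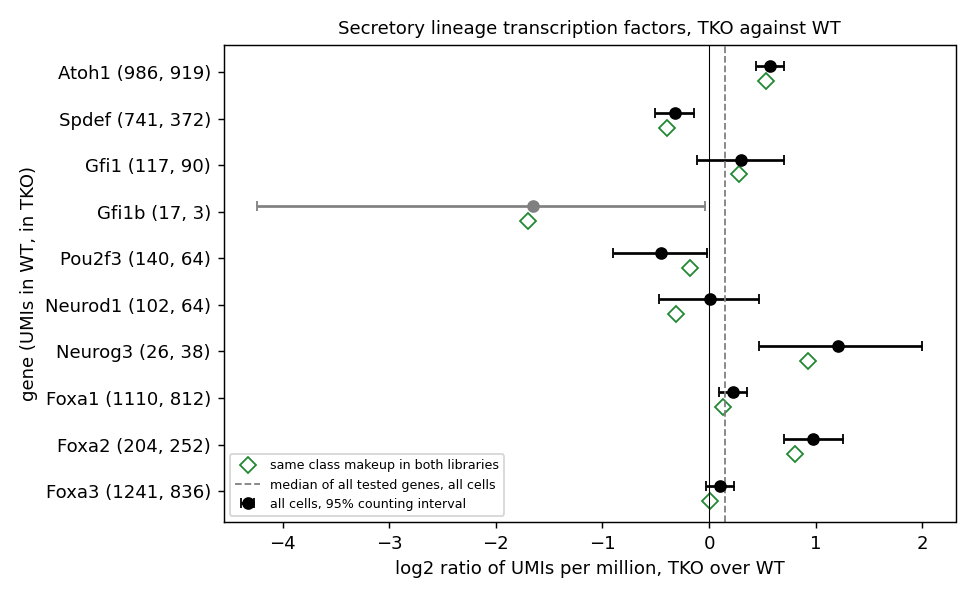
Log2 ratio of CPM, TKO (*Tipe0*-/-) over WT, for each factor over all cells (circles with 95% counting intervals, grey for *Gfi1b*, which had fewer than 50 UMIs) and after both libraries were given the same class makeup (open diamonds); the dashed line is the median of all genes compared, 0.15. *Foxa2* and *Neurog3* lie to the right of the line under both calculations, and *Spdef* to the left.

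*Atoh1* (ENSMUSG00000073043, chr6:64729125-64731245 of GRCm38, + strand), the factor at the head of the secretory lineage, was counted 986 times in 605 WT cells and 919 times in 477 *Tipe0*-/- cells. Its level was 25.9 CPM (24.3 to 27.5) in WT and 38.5 CPM (36.0 to 41.0) in *Tipe0*-/- cells, a log2 ratio of 0.57 (0.44 to 0.70). The intervals of the libraries did not overlap, and with the same class makeup in both libraries the log2 ratio was 0.53. The ratio lay above the median of all genes by 0.42, short of the 0.5 step of a call. Thinning each cell to 3000 UMIs left an *Atoh1* UMI in 7.32% of cells in WT (6.47 to 8.25) and in 9.42% in *Tipe0*-/- (8.18 to 10.8), intervals that overlapped narrowly, against 17.8% and 23.8% before thinning.

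Goblet-like cells carried 44.5% of the *Atoh1* UMIs in WT and 49.8% in *Tipe0*-/- cells. There the level was 76.6 CPM (69.6 to 84.1) in WT and 125 CPM (113 to 137) in *Tipe0*-/- cells, a log2 ratio of 0.70 (0.51 to 0.90) beside a median of 0.10 over the genes of that class. Thinned to 3000 UMIs, 25.8% of WT and 37.8% of *Tipe0*-/- goblet-like cells kept an *Atoh1* UMI. Enterocyte-like cells, which should lack the gene, kept one in 1.41% and 1.14%, at median depths of 6289 and 5487 UMIs against 8552 and 7488 in goblet-like cells. Mitochondrial UMIs were 6.33% in WT and 8.44% in *Tipe0*-/- goblet-like cells, and their part in the difference was not tested.

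In Paneth-like cells *Atoh1* was at 35.3 CPM in WT (31.0 to 40.1) and 35.9 CPM in *Tipe0*-/- cells (30.1 to 42.6), a log2 ratio of 0.03 (-0.29 to 0.34). The genes of this class had a median ratio of 0.45, so *Atoh1* lay below the typical gene of the class although its level was nearly equal. This did not hold within cluster 6, the larger Paneth-like cluster, with 170 WT and 124 *Tipe0*-/- *Atoh1* UMIs. There the log2 ratio was 0.14 (-0.21 to 0.48), and its interval held the cluster median of 0.28. Thinned shares were 14.3% (10.5 to 18.9) in WT and 8.57% (4.51 to 14.5) in *Tipe0*-/- Paneth-like cells, with overlapping intervals. In the stem-like class the levels were 14.2 CPM (9.53 to 20.4) and 8.80 CPM (5.03 to 14.3), whose intervals overlapped. In tuft-like cells *Atoh1* was also higher in the *Tipe0*-/- library, at 10.9 CPM in WT (20 UMIs in 14 of 139 cells) and 37.2 CPM in *Tipe0*-/- cells (30 UMIs in 10 of 43 cells), a log2 ratio of 1.75 (0.90 to 2.66). The tuft-like cells of the *Tipe0*-/- library were also sequenced to a greater median depth, 15990 UMIs against 11820, and the part of this depth was not tested.

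*Spdef* (ENSMUSG00000024215, chr17:27714352-27728955, - strand), the ETS factor that matures goblet and Paneth cells, went the other way. It was counted 741 times in 495 WT cells and 372 times in 262 *Tipe0*-/- cells, which is 19.4 CPM (18.1 to 20.9) and 15.6 CPM (14.02 to 17.2). The log2 ratio was -0.32 (-0.50 to -0.14) over all cells and -0.39 with the same class makeup, short of the 0.5 step from the median. In goblet-like cells *Spdef* was at 58.4 CPM in WT (52.3 to 65.0) and 50.1 CPM in *Tipe0*-/- cells (43.1 to 57.9), intervals that overlapped, with a log2 ratio of -0.22 (-0.49 to 0.04), below the class median of 0.10. After integration of the libraries by canonical correlation this ratio was 0.13, but in other cells. The goblet-like class then held 286 WT and 174 *Tipe0*-/- cells, against 531 and 331 in the main setting. An unnamed cluster with *Spdef*, *Id4* and *Ern2* among its leading genes formed there. In the main setting the thinned shares of goblet-like cells with *Spdef* were nearly equal, 19.2% (15.9 to 22.8) and 18.7% (14.7 to 23.4). Without thinning, 11 of 711 WT and 2 of 351 *Tipe0*-/- enterocyte-like cells carried it.

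Goblet-like cells formed 3 clusters, numbered 7, 10 and 11, and *Atoh1* was higher in the *Tipe0*-/- library in each. Cluster 7 was led by *Id4*, *Agr2* and *Ern2* and held 162 WT and 141 *Tipe0*-/- cells. Here *Atoh1* was at 97.3 and 146 CPM (log2 ratio 0.58, 0.29 to 0.88), while *Spdef* was at 92.2 and 60.7 CPM (-0.60, -0.98 to -0.23), so that both intervals lay clear of the cluster median of 0.06 on opposite sides. Clusters 10 and 11 were led by the mature goblet genes *Zg16* and *Clca1*, or *Ido1* and *Zg16*, with median depths of 15279 and 4704 UMIs. In cluster 10 *Atoh1* was at 29.3 and 48.3 CPM (0.72, 0.27 to 1.17) and *Spdef* at 24.9 and 19.0 CPM (-0.38, -1.04 to 0.23). In cluster 11 *Atoh1* was at 212 and 319 CPM (0.59, 0.27 to 0.91) and *Spdef* at 114 and 122 CPM (0.11, -0.39 to 0.59). The interval of *Spdef* lay below the cluster median in cluster 7 and spanned it in clusters 10 and 11, and a difference between the clusters was not tested.

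A deeply sequenced cycling cluster, numbered 0 and led by replication genes such as *Cdc45* and *Mcm3*, held 22.1% of all WT and 26.8% of all *Tipe0*-/- *Atoh1* UMIs. Its second-ranked marker list was that of secretory progenitors, and none of its 10 leading genes was a listed cycling marker. Of the UMIs of the cycling class, cluster 0 held 218 of 227 WT and 246 of 258 *Tipe0*-/- ones for *Atoh1*. For *Spdef* it held 231 of 235 and 117 of 118. In it *Atoh1* was at 30.1 and 38.6 CPM (log2 ratio 0.36, 0.09 to 0.63) and *Spdef* at 31.9 and 18.3 CPM (-0.80, -1.13 to -0.47). The median depth of its cells was 18579 UMIs in WT and 23501 in *Tipe0*-/- cells. The pair pointed in opposite directions here as in cluster 7. Over the whole cycling class *Atoh1* was at 18.8 CPM in WT and 27.8 CPM in *Tipe0*-/- cells (0.56, 0.30 to 0.82), but the direction depended on the clustering, with -0.0868 for variable genes by mean and dispersion and -0.0546 after integration. In the same class, which also holds the shallower clusters 3 and 4, *Spdef* was at 19.5 CPM in WT and 12.7 CPM in *Tipe0*-/- cells (-0.61, -0.95 to -0.29). This *Spdef* ratio had no value under 4 other clusterings, in which the cycling class held too few *Spdef* UMIs. By mean and dispersion, after integration and with all variable genes kept, an unnamed cluster led by genes such as *Creb3l1*, *Mt3* and *Spdef* formed. The cycling class held fewer cells under each of these settings and at resolution 1.6.

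The number of *Atoh1* UMIs per *Spdef* UMI needs no scaling between libraries, since both counts come from the same cells. Over all cells it was 1.33 in WT (1.21 to 1.47) and 2.47 in *Tipe0*-/- cells (2.19 to 2.79). In goblet-like cells it was 1.31 (1.13 to 1.52) and 2.49 (2.09 to 2.97), in cluster 7 it was 1.06 (0.85 to 1.32) and 2.40 (1.88 to 3.08), and in cluster 0 it was 0.94 (0.78 to 1.14) and 2.103 (1.68 to 2.64). The intervals of the libraries did not overlap in these 4 sets of cells or in cluster 10 (1.18 and 2.55), whereas in cluster 11 (1.86 and 2.603) and in Paneth-like cells (2.14 and 2.66) they overlapped. In stem-like cells the order was reversed, at 3.63 in WT (1.62 to 9.18) and 1.78 in *Tipe0*-/- cells (0.74 to 4.56), with overlapping intervals. The ratio restates the *Atoh1* and *Spdef* counts given above and is no separate evidence of a difference. The same holds for the other pair ratios below. These sets also share cells, since clusters 7, 10 and 11 are part of the goblet-like class and every set is part of all cells. How often other pairs of genes differ as much was not tested. Both factors were found together in 276 WT and 181 *Tipe0*-/- cells. This is 55.8% of WT and 69.1% of *Tipe0*-/- cells with *Spdef*, beside 17.8% and 23.8% of all cells with *Atoh1*. It is also 45.6% and 37.9% of the cells with *Atoh1*, against 7.83% and 5.30% of cells without *Atoh1* that carried *Spdef*.

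**Figure D3:**
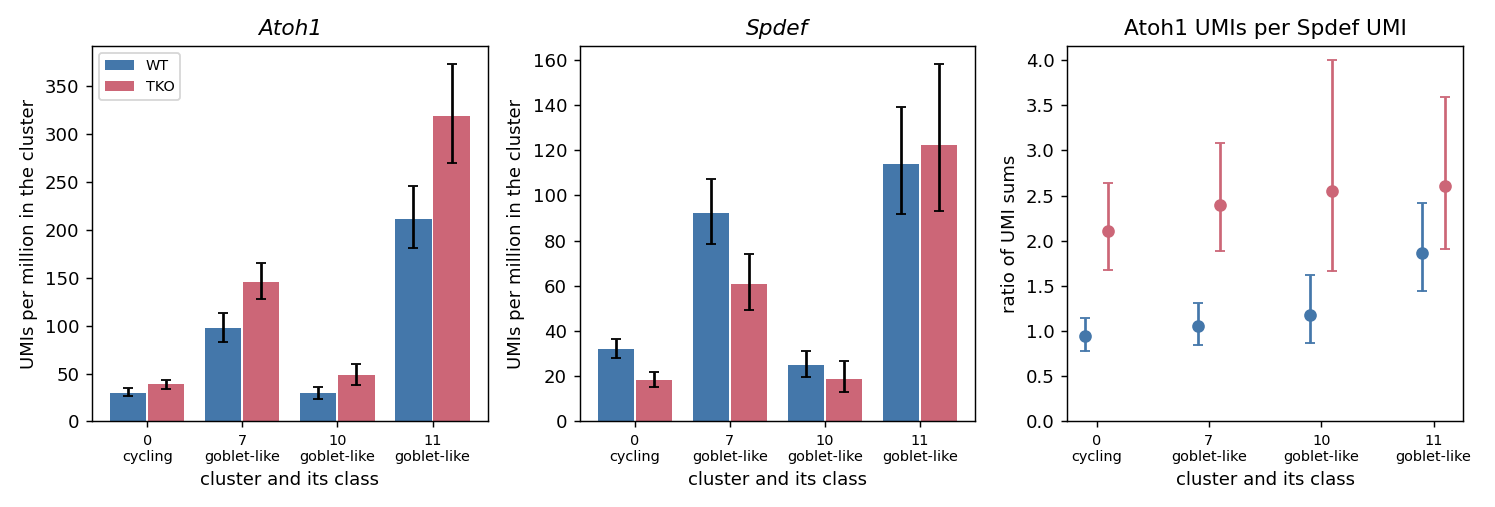
Left and middle, level of *Atoh1* and *Spdef* (CPM within the cluster, linear axis from 0) in cycling cluster 0 and goblet-like clusters 7, 10 and 11 of the WT (blue) and TKO, that is *Tipe0*-/-, library (red); right, *Atoh1* UMIs per *Spdef* UMI. Bars and points carry 95% counting intervals; the TKO ratio is above the WT ratio in each cluster, and the intervals overlap in cluster 11.

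*Gfi1* (ENSMUSG00000029275, chr5:107716657-107726036, - strand) encodes a zinc finger repressor that acts below Atoh1 in goblet and Paneth cells and also has a role in lymphocytes. It was counted 117 times in WT (3.07 CPM, 2.54 to 3.68) and 90 times in *Tipe0*-/- cells (3.77 CPM, 3.03 to 4.63), a log2 ratio of 0.30 (-0.12 to 0.70) whose interval held the median of all genes. In goblet-like cells it was at 7.33 CPM (42 UMIs) in WT and 9.53 CPM (35 UMIs) in *Tipe0*-/- cells, in Paneth-like cells at 3.71 and 4.59 CPM, and in enterocyte-like cells at 0.69 and 0.38 CPM. Among cells with *Gfi1*, 61.1% in WT and 66.3% in *Tipe0*-/- cells also carried *Atoh1*, against 17.8% and 23.8% of all cells. Cells with *Gfi1* were deeper than other cells, with medians of 14536 against 7593 UMIs in WT and 15253.5 against 7146.5 in *Tipe0*-/- cells. The part of this depth in the overlap was not tested. The nominally highest WT value, 15.3 CPM in lymphocyte-like cells, rested on 4 UMIs, and its interval (4.17 to 39.1) overlapped that of goblet-like cells. *Gfi1* overlaps a gene on the opposite strand, and whether the counting used strand is not given in the sources used here.

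*Pou2f3* (ENSMUSG00000032015, chr9:43123939-43210369, - strand), required for tuft cells, was counted 140 times in 107 WT cells and 64 times in 43 *Tipe0*-/- cells. This is 3.67 CPM (3.09 to 4.33) and 2.68 CPM (2.06 to 3.42), a log2 ratio of -0.45 (-0.91 to -0.02), and the intervals overlapped. Tuft-like cells themselves were fewer in the *Tipe0*-/- library, 43 of 2006 against 139 of 3402, and the summed level of the 19 tuft markers was 115 CPM against 217 CPM in WT, with *Gnat3* at 0 in *Tipe0*-/- cells. Within tuft-like cells *Pou2f3* was at 55.2 CPM in WT (101 UMIs in 72 cells) and 53.3 CPM in *Tipe0*-/- cells (43 UMIs in 26 cells), a log2 ratio of -0.04 (-0.60 to 0.48). This interval held an equal level and also the ratio over all cells, so it cannot tell them apart. With the same class makeup the log2 ratio was -0.18, no longer 0.5 from the median of 0.12 for that calculation. Over all cells it was -0.33 without the 5% of cells with the highest doublet scores, which also ends the call. The part of class makeup in the difference was not tested.

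Of the cells with *Pou2f3*, 18 of 107 in WT (16.8%) and 9 of 43 in *Tipe0*-/- (20.9%) were cycling, below the 26.8% and 32.4% of all cells. It was carried by 2 of 711 WT enterocyte-like cells and 0 of 351 *Tipe0*-/- ones. The genes most enriched in cells with *Pou2f3* were *Ffar3*, *Alox5ap*, *Plcb2*, *Sh2d7* and *Hmx2*, each at least 26.7-fold above all other cells in both libraries. Of these, *Alox5ap* makes leukotriene precursors available, *Plcb2* belongs to the taste signaling chain and *Ffar3* is a receptor for short-chain fatty acids.

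*Gfi1b* (ENSMUSG00000026815, chr2:28609450-28621982, - strand), the paralog of *Gfi1* found in tuft cells, was near the limit of detection. There were 17 UMIs in 16 WT cells and 3 UMIs in 3 *Tipe0*-/- cells, which is 0.45 CPM (0.26 to 0.71) and 0.13 CPM (0.03 to 0.37), and with 20 UMIs in all it was not read against the other genes. In WT 11 of the 17 UMIs were in tuft-like cells (6.02 CPM). The 43 tuft-like cells of the *Tipe0*-/- library held none, which at their summed depth allows up to 3.72 CPM, a value inside the WT interval (3.003 to 10.8). These 11 UMIs were too few for a ratio, so the overlap does not settle whether the levels differed. Of the 16 WT cells with *Gfi1b*, 6 also carried *Pou2f3*.

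*Neurog3* (ENSMUSG00000044312, chr10:62133090-62134763, + strand), the basic helix-loop-helix factor that starts the enteroendocrine branch, was the rarest of the 9 factors read against all genes and had the largest ratio. It was counted 26 times in 14 WT cells (0.68 CPM, 0.45 to 0.999) and 38 times in 19 *Tipe0*-/- cells (1.59 CPM, 1.13 to 2.18). The log2 ratio was 1.21 (0.46 to 2.0), and 0.93 with the same class makeup. The 5 richest cells held 16 UMIs in each library, and without them the log2 ratio was 1.77. The share of cells with *Neurog3* was 0.41% in WT (0.23 to 0.69) and 0.95% in *Tipe0*-/- (0.57 to 1.48), intervals that overlapped, and at 3000 UMIs per cell the shares were 0.18% and 0.30%, from 6 cells each.

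*Neurog3* was not confined to the enteroendocrine-like cluster. In WT the cells with *Neurog3* were 5 enteroendocrine-like, 5 cycling, 3 Paneth-like and 1 stem-like, and in *Tipe0*-/- cells they were 5 enteroendocrine-like, 5 cycling, 3 Paneth-like, 3 goblet-like and 3 stem-like. Enteroendocrine-like cells were 35.7% and 26.3% of them, beside 1.23% and 1.35% of all cells. The shares were 35.7% and 26.3% for cycling cells, beside 26.8% and 32.4%, and 21.4% and 15.8% for Paneth-like cells, beside 8.41% and 6.98%. In *Tipe0*-/- cells they were 15.8% each for goblet-like and stem-like cells, beside 16.5% and 13.4%. None of the 531 WT goblet-like cells carried *Neurog3*, while *Tipe0*-/- goblet-like cells had 6 UMIs in 3 cells (1.63 CPM). The exact Poisson intervals, 0 to 0.64 CPM in WT and 0.60 to 3.55 CPM in *Tipe0*-/- cells, overlapped narrowly. These UMIs were too few for a ratio, so the overlap does not settle whether the levels differed. *Neurog3* overlaps *Fam241b* on the opposite strand. The level in enteroendocrine-like cells was 12.4 CPM in WT (6 UMIs, 4.55 to 27.0) and 25.6 CPM in *Tipe0*-/- cells (11 UMIs, 12.8 to 45.8), too few counts for a ratio. Cells with *Neurog3* were enriched for *Insm1*, a factor of endocrine commitment, 51.1-fold in WT and 31.8-fold in *Tipe0*-/- cells, and for the granule proteins *Chga* and *Chgb* and the hormone *Ghrl*.

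*Neurod1* (ENSMUSG00000034701, chr2:79452521-79456751, - strand), which acts after Neurog3 in maturing enteroendocrine cells, was counted 102 times in 46 WT cells and 64 times in 36 *Tipe0*-/- cells. The 5 richest cells held 31 of the WT and 24 of the *Tipe0*-/- UMIs, a clumping that the counting intervals do not cover. Over all cells the *Neurod1* level was the same in both libraries, 2.68 CPM each (2.18 to 3.25 in WT, 2.06 to 3.42 in *Tipe0*-/- cells), a log2 ratio of 0.01 (-0.47 to 0.47). With the same class makeup in both libraries the log2 ratio was -0.31. In enteroendocrine-like cells it was at 161 CPM in WT (78 UMIs in 30 of 42 cells) and 95.5 CPM in *Tipe0*-/- cells (41 UMIs in 22 of 27 cells), a log2 ratio of -0.75 (-1.34 to -0.19). The share of enteroendocrine-like cells that carried *Neurod1* was not lower in the *Tipe0*-/- library, 81.5% against 71.4%, at median depths of 11475 and 8726 UMIs, but at 3000 UMIs per cell it was 22.2% (8.62 to 42.3) against 45.2% (29.8 to 61.3). Enterocyte-like cells, which should lack *Neurod1*, carried it in 0.42% of WT and 1.14% of *Tipe0*-/- cells. They held 4 of the 102 WT UMIs and 10 of the 64 *Tipe0*-/- UMIs, so the level over all cells rests partly on them. *Neurod1* overlaps *Cerkl* on the same strand and *Gm26755* on the other, so its counts are uncertain where reads could be shared.

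The number of *Neurog3* UMIs per *Neurod1* UMI was 0.25 in WT (0.16 to 0.40) and 0.59 in *Tipe0*-/- cells (0.39 to 0.90) over all cells, with intervals that overlapped only narrowly. In enteroendocrine-like cells it was 0.08 (0.03 to 0.18) and 0.27 (0.12 to 0.53), again with overlapping intervals. Both factors were found together in 5 WT cells and 10 *Tipe0*-/- cells, which is 35.7% and 52.6% of the cells with *Neurog3*. Of all cells, 1.35% in WT and 1.79% in *Tipe0*-/- carried *Neurod1*. Cells with *Neurod1* were enriched for the hormone genes *Nts*, *Gip*, *Pyy*, *Cck* and *Ghrl*, by 125-fold or more in each library.

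*Foxa2* (ENSMUSG00000037025, chr2:148042877-148046969, - strand) showed the clearest difference of the forkhead factors. It was counted 204 times in 176 WT cells and 252 times in 203 *Tipe0*-/- cells, although the *Tipe0*-/- library was the smaller. Its level was 5.35 CPM (4.64 to 6.14) in WT and 10.5 CPM (9.28 to 11.9) in *Tipe0*-/- cells, a log2 ratio of 0.98 (0.71 to 1.25) and 0.81 with the same class makeup. The intervals were far apart, and the share of cells with *Foxa2* was 5.17% in WT (4.45 to 5.97) and 10.1% in *Tipe0*-/- (8.83 to 11.52). At 3000 UMIs per cell it was 1.70% (1.30 to 2.20) and 2.74% (2.07 to 3.55), where the intervals overlapped.

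The higher *Foxa2* level was clearest in goblet-like and Paneth-like cells. In goblet-like cells *Foxa2* was at 5.93 CPM in WT (34 UMIs) and 14.2 CPM in *Tipe0*-/- cells (52 UMIs), a log2 ratio of 1.25 (0.60 to 1.92). The thinned shares there were 2.64% (1.45 to 4.38) and 6.04% (3.73 to 9.18), and 0 of 711 and 1 of 351 thinned enterocyte-like cells kept a *Foxa2* UMI. The goblet-like ratio was 0.76 with each cell classed by its own marker scores. *Foxa2* was at 5.64 and 13.5 CPM in Paneth-like cells, a log2 ratio of 1.26 (0.62 to 1.91). Stem-like cells had 14.2 and 22.0 CPM (0.62, -0.10 to 1.37), an interval that held the class median of 0.01. The cycling class had 7.14 and 10.3 CPM (0.53, 0.10 to 0.97), an interval only just above the class median of 0.08. Within each of the cycling clusters 0, 3 and 4 the *Foxa2* interval held the cluster median. Enteroendocrine-like cells were the exception, at 22.8 CPM in WT and 16.3 CPM in *Tipe0*-/- cells, on 11 and 7 UMIs with overlapping intervals. In enterocyte-like cells *Foxa2* was nearly absent in both libraries, with 2 UMIs in WT and 1 in *Tipe0*-/- cells.

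*Foxa1* (ENSMUSG00000035451, chr12:57540628-57546916, - strand) was counted 1110 times in WT and 812 times in *Tipe0*-/- cells, at 29.1 CPM (27.4 to 30.9) and 34.0 CPM (31.7 to 36.4). The interval of the log2 ratio, 0.22 (0.09 to 0.35), held the median of all genes. It was spread over most classes, also at 15.5 CPM in WT and 19.6 CPM in *Tipe0*-/- enterocyte-like cells. B cell-like cells held no *Foxa1* UMI in either library, which allows up to 13.5 CPM in WT and 62.4 CPM in *Tipe0*-/- cells. Stem-like cells were highest in WT, at 63.8 CPM (53.3 to 75.8), and were lower in the *Tipe0*-/- library, at 44.6 CPM (35.4 to 55.4), a log2 ratio of -0.51 (-0.94 to -0.11). In enteroendocrine-like cells the levels were 37.2 CPM (18 UMIs) and 65.2 CPM (28 UMIs), a log2 ratio of 0.79 (-0.10 to 1.75).

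*Foxa3* (ENSMUSG00000040891, chr7:19013284-19023538, - strand) was counted 1241 times in WT and 836 times in *Tipe0*-/- cells, at 32.5 CPM (30.8 to 34.4) and 35.0 CPM (32.7 to 37.4), a log2 ratio of 0.10 (-0.02 to 0.23) that was -0.0499 when scaled by the median ratio over genes. It was highest in goblet-like cells, at 72.0 CPM in WT (65.3 to 79.3) and 74.0 CPM in *Tipe0*-/- cells (65.5 to 83.4), with a log2 ratio of 0.04 (-0.19 to 0.26). In Paneth-like cells it was at 42.3 and 36.2 CPM (-0.22, -0.53 to 0.08), below the class median of 0.45. The number of *Atoh1* UMIs per *Foxa3* UMI in goblet-like cells was 1.06 in WT (0.93 to 1.22) and 1.68 in *Tipe0*-/- cells (1.45 to 1.96). For *Spdef* UMIs per *Foxa3* UMI it was 0.81 (0.70 to 0.94) and 0.68 (0.56 to 0.82) there, with overlapping intervals. Over all cells the *Spdef* value was 0.60 in WT (0.54 to 0.65) and 0.44 in *Tipe0*-/- cells (0.39 to 0.50). In cluster 11 the order was reversed, at 0.57 (0.44 to 0.74) and 0.77 (0.54 to 1.10), with overlapping intervals.

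There were 0.18 *Foxa2* UMIs per *Foxa1* UMI in WT (0.16 to 0.21) and 0.31 in *Tipe0*-/- cells (0.27 to 0.36) over all cells. The same ratio was 0.15 (0.10 to 0.22) and 0.33 (0.23 to 0.45) in goblet-like cells, 0.28 (0.19 to 0.41) and 0.59 (0.41 to 0.84) in Paneth-like cells, and 0.22 (0.14 to 0.34) and 0.49 (0.33 to 0.73) in stem-like cells. Enteroendocrine-like cells went the other way, with 0.61 (0.26 to 1.37) in WT and 0.25 (0.09 to 0.59) in *Tipe0*-/- cells, intervals that overlapped. The intervals did not overlap over all cells and in goblet-like cells and overlapped narrowly in Paneth-like and stem-like cells. Among the goblet-like clusters they overlapped in cluster 7 (0.19 in WT and 0.27 in *Tipe0*-/- cells) and cluster 10 (0.13 and 0.24). They did not overlap in cluster 11 (0.14 and 0.67), on 8 and 18 *Foxa2* UMIs. In cycling cluster 0 (0.24 and 0.29) they overlapped. Of the cells with *Foxa1*, 9.58% in WT and 15.4% in *Tipe0*-/- cells also carried *Foxa2*, against 3.67% and 8.03% of cells without *Foxa1*. The share was thus higher in the *Tipe0*-/- library with and without *Foxa1*.

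Within each class the factors with at least 20 UMIs there were compared with the class median by the same 0.5 step. The class medians and shares of genes rest on genes with at least 50 UMIs in the class. Calls on fewer UMIs therefore have no like background. These were *Atoh1* in stem-like cells (29 UMIs in WT and 16 in *Tipe0*-/- cells), *Foxa1* (18 and 28) and *Foxa3* (18 and 11) in enteroendocrine-like cells, and *Pou2f3* in the cycling class (20 and 10). In goblet-like cells 2 of 6 were called higher (*Atoh1* and *Foxa2*, beside 8.81% of genes) and 0 lower (beside 7.48%). In Paneth-like cells 1 of 6 was called higher (*Foxa2*, 7.95% of genes) and 2 lower (*Spdef* and *Foxa3*, 8.85%), against the raised class median of 0.45. In stem-like cells 1 of 4 was called higher (*Foxa2*, 7.43%) and 2 lower (*Atoh1* and *Foxa1*, 8.36%), in tuft-like cells 2 of 5 higher (*Atoh1* and *Foxa1*, 10.0%) and 0 lower (12.2%), and in enteroendocrine-like cells 1 of 3 higher (*Foxa1*, 9.25%) and 2 lower (*Neurod1* and *Foxa3*, 8.72%). In the cycling class 0 of 8 were called higher (5.41%) and 2 lower (*Spdef* and *Pou2f3*, 4.82%). For 6 of these calls the interval spanned the class median, namely *Atoh1* and *Foxa2* in stem-like cells, *Foxa1* in tuft-like cells, *Foxa1* and *Foxa3* in enteroendocrine-like cells and *Pou2f3* in the cycling class. The calls of *Spdef* and *Pou2f3* in the cycling class had no value under 4 other clusterings, where that class held too few of their UMIs.

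**Figure D4:**
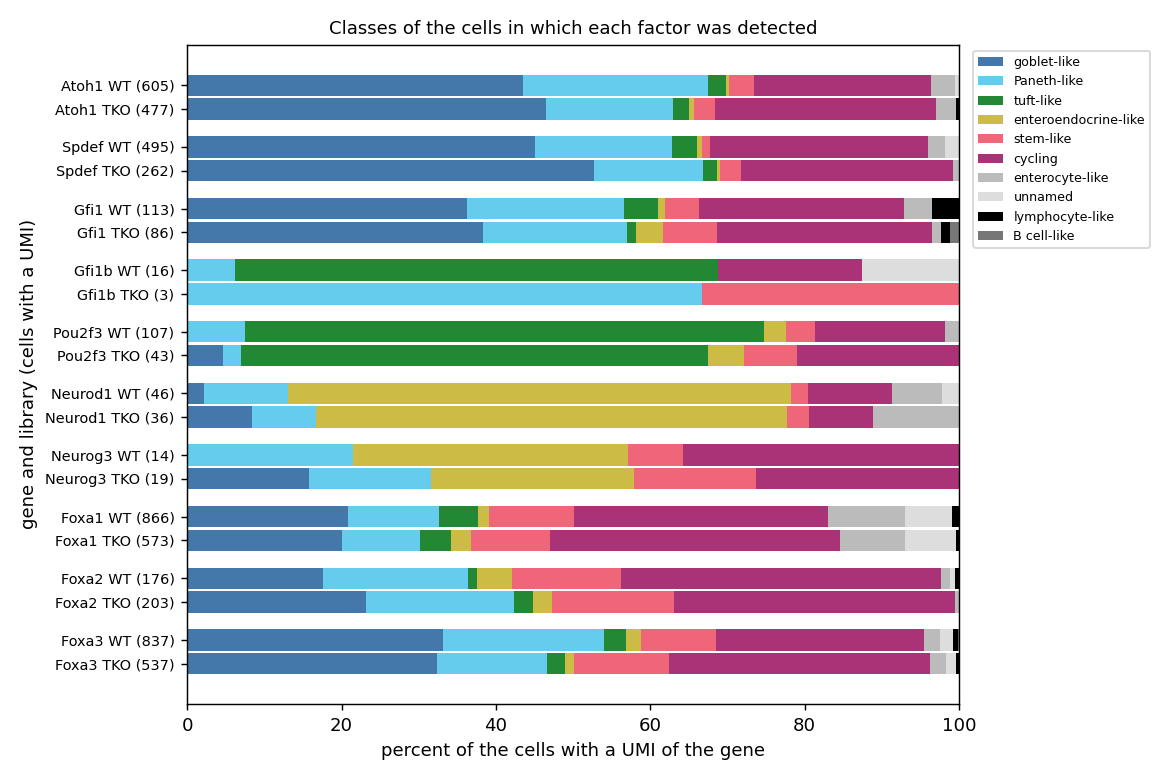
For each factor and library, the percent of the cells with a UMI of the factor that belonged to each class (stacked bars from 0 to 100%, number of such cells in parentheses; TKO is *Tipe0*-/-). Cells with *Pou2f3* were mostly tuft-like and cells with *Neurod1* mostly enteroendocrine-like, while cells with *Atoh1*, *Spdef*, *Gfi1* and *Foxa3* were divided mainly among goblet-like, Paneth-like and cycling cells.

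Factors overlapped widely in single cells. At least 2 of the 10 were detected in 62.0% of WT and 68.9% of *Tipe0*-/- goblet-like cells, in 64.0% and 70.0% of Paneth-like cells and in 61.9% and 66.7% of enteroendocrine-like cells. In enterocyte-like cells the shares were 2.95% and 2.85%. The most frequent pair was *Atoh1* with *Foxa3*, found together in 377 WT and 300 *Tipe0*-/- cells, or 62.3% and 62.9% of the cells with *Atoh1*, against 16.4% and 15.5% of cells without it. Cells with both *Atoh1* and *Foxa2* were 74 in WT and 100 in *Tipe0*-/- cells, or 12.2% and 21.0% of the cells with *Atoh1*. Of the cells without *Atoh1*, 3.65% and 6.74% carried *Foxa2*, so the share was higher in the *Tipe0*-/- library in both. Cells with *Atoh1* were deeper than other cells, with medians of 14173 against 7002 UMIs in WT and 14928 against 6266 in *Tipe0*-/- cells, and the part of depth in these overlaps was not tested.

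The genes whose levels followed each factor most closely over 36 points (18 clusters in 2 libraries, which share depth and libraries) were ranked by correlation, as a description. Pearson's r was 0.92 for *Spdef* with *Rep15*, 0.84 for *Atoh1* with *Pla2g10*, 0.91 for *Pou2f3* with *Sh2d6*, 0.92 for *Neurod1* with the hormone *Cck* and 0.87 for *Neurog3* with *Insm1*. For the forkhead factors it was 0.92 for *Foxa3* with *Fxyd3*, 0.92 for *Foxa1* with *Pim3* and 0.88 for *Foxa2* with *Greb1*. *Gfi1* was followed less closely (0.71, *St3gal6*), as was *Gfi1b* on its 20 UMIs (0.62, *Ly6g6f*).

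Other transcription factors of the same lineages were read the same way over all cells. Of 33 such genes 23 had at least 50 UMIs, and 7 were called higher (beside 6.22% of all genes) and 3 lower (beside 8.51%), with a median log2 ratio of 0.20. The lists of the branches differed. All 3 tuft factors with enough UMIs were called lower, *Spib* (-0.81), *Runx1* (-0.59) and *Hmx2* (-0.95), in the library with fewer tuft-like cells. Of 10 enteroendocrine factors with enough UMIs 6 were called higher and 0 lower, namely the commitment factor *Insm1* (0.73), *Nkx2-2* (1.03), *Isl1* (0.70), *Rfx3* (0.72), the serotonin lineage factor *Fev* (1.09) and *Etv1* (1.03). Their counts were small, from 73 UMIs for *Nkx2-2* to 349 for *Rfx3*, and the interval of *Isl1* (0.10 to 1.31) held the median of all genes. The summed level of the 19 enteroendocrine markers was 336 CPM in WT and 377 CPM in *Tipe0*-/- cells. Enteroendocrine-like cells held 483473 of 38127808 UMIs in WT and 429434 of 23897126 in *Tipe0*-/- cells, a larger part of the latter library. The part of this makeup in the 6 ratios was not tested.

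None of the 6 goblet and Paneth factors was called, and the intervals of 3 of them, *Klf4*, *Creb3l1* and *Xbp1*, lay below the median of all genes, beside 27.8% of all genes. Of the 4 Notch and progenitor factors, *Hes1*, the Notch target that represses *Atoh1*, was called higher, at 52.1 CPM in WT and 108 CPM in *Tipe0*-/- cells (log2 ratio 1.05, 0.97 to 1.14). The interval of *Sox9* (0.55, 0.47 to 0.62) also lay above the median of all genes and that of *Hes6* (0.04, -0.06 to 0.15) below it. *Hes1* was highest in stem-like cells in both libraries, and it is among the genes that the study selected from these same libraries.

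**Figure D5:**
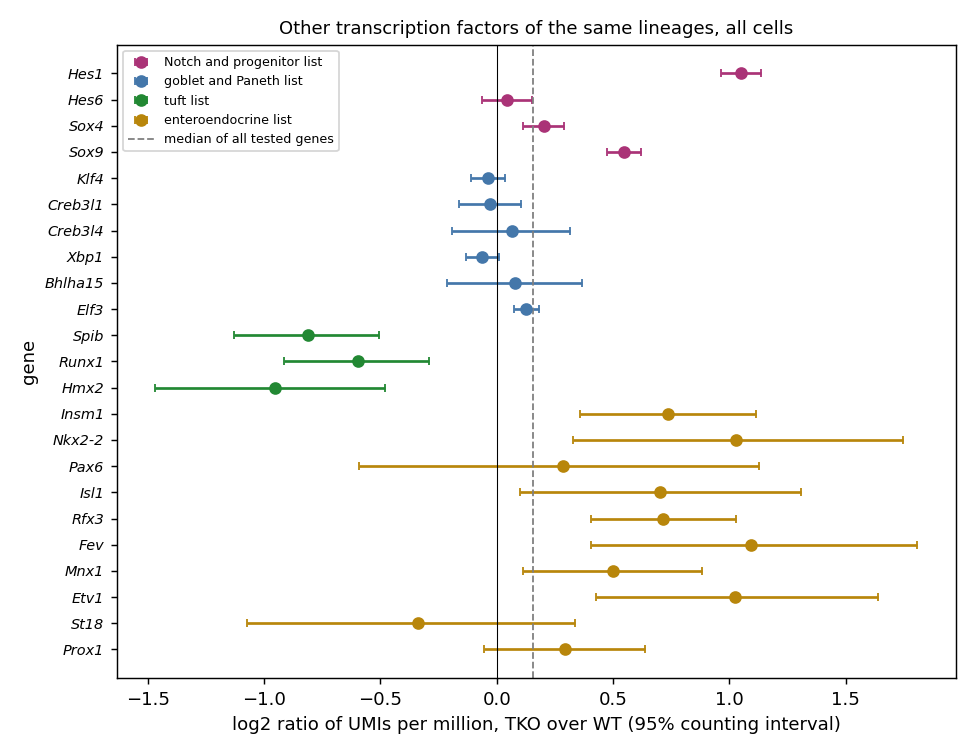
Log2 ratio of CPM over all cells, TKO (*Tipe0*-/-) over WT, for 23 other transcription factors of the same lineages with at least 50 UMIs, coloured by list, with 95% counting intervals; the dashed line is the median of all genes compared. The tuft factors lie to the left of the line and 6 of 10 enteroendocrine factors lie 0.5 or more to its right.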

How the data were processed

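Per the labels, each library was made with 10x Single Cell 3′ v2 chemistry. Cell Ranger and mm10 are named by the authors for the processing, and whole-number UMI counts per gene and cell were deposited for each library and used as they are. The methods also describe merging the libraries with normalization by mapped read depth, and whether the counts come from before that step is not given in the sources used here. UMIs were summed over cells and divided by the library or class total (CPM, per 1000000). Levels have exact Poisson, shares exact Clopper-Pearson and ratios exact binomial intervals at 95%, which cover counting error only. Log2 ratios had 0.5 added to each sum. A count of 0 was given the limit of 3 counts. Thinning drew 3000 UMIs per cell without replacement, and since no cell had fewer than 3247, none was left out.

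Clustering used Seurat 5.3.0 under R 4.3.3 (log-normalization, 2000 variable genes by vst less the 10 factors and the genes of the study's genotype comparison, which left 1931, 14 principal components, resolution 0.8). The study's choice of variable genes by mean and dispersion gave no enteroendocrine cluster and is an alternative. Classes were named by the highest mean marker z-score, with at least 3 markers found in 10% of the cluster's cells and at 1.5 times the share of other cells, and 1 cluster stayed unnamed. Scrublet (Scanpy 1.11.5) called 2 WT and 4 *Tipe0*-/- doublets, too few for it to have worked, so no cell was removed and the top 5% by score were left out as an alternative. The members and all gene lists were chosen with earlier results of these data known. All 10 members are named, and other transcription factors where they were called. The 5 genes most enriched in cells with a member were ranked by the lower ratio of both libraries, and some are named. Genomic positions are from GENCODE vM21 (GRCm38). On simulated counts with 200 of 11665 genes changed, 100% were recovered in the right direction, and 95.6% of intervals held the true value. These counts were drawn from the counting model of the intervals, with large planted changes and no spread between cells or mice. They check the calculation only and not the reliability of the ratios reported here. Digestion is described with different enzymes in the labels and the methods, alike for both libraries.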

Additional observations from a re-analysis of the deposited data

How the results depend on the processing

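No paired analysis was possible because each genotype has 1 library and the labels carry no replicate numbers. Whole-library log2 ratios kept their direction under totals without mitochondrial and abundant genes, without cells of over 20% mitochondrial UMIs and without the 5% of cells with the highest doublet scores, and, chosen after seeing the data, with equal weight per cell, without the 5 richest cells and without lymphocyte-like and B cell-like clusters, except for *Neurod1*, which was at 0.01 and went as low as -0.31. Scaling by the median ratio over genes gave 0.42 for *Atoh1*, 0.0689 for *Foxa1* and -0.0499 for *Foxa3*. The difference of mean log-normalized expression, a scale on which values are smaller by construction, was 0.0964 for *Atoh1*, -0.0239 for *Spdef*, -0.00379 for *Gfi1b*, -0.0146 for *Pou2f3*, 0.00801 for *Neurog3*, 0.0268 for *Foxa1* and 0.0512 for *Foxa2*. Members called higher fell from 2 to 1 with at least 200 UMIs (chosen after seeing the data), since *Neurog3* has 64. Members called lower were 2 with no filter on counts, which adds *Gfi1b*, and 0 without the highest doublet scores, where *Pou2f3* was at -0.33. The class with the highest level in each library stayed the same for 4 of 10 members with variable genes by mean and dispersion and for 5 with each cell's own marker scores. The *Spdef* ratio in goblet-like cells was 0.13 after integration by canonical correlation. That class then held 286 WT and 174 *Tipe0*-/- cells, against 531 and 331 in the main setting. The *Atoh1* ratio in the cycling class reversed, from 0.56 to -0.0868 with variable genes by mean and dispersion and to -0.0546 with integration. The cycling class held 913 WT and 649 *Tipe0*-/- cells in the main setting. It held 730 and 485 by mean and dispersion, and 633 and 458 with integration. Under both alternatives, and also with all variable genes kept, an unnamed cluster led by genes such as *Creb3l1*, *Mt3* and *Spdef* formed. The *Atoh1* ratio did not reverse with all variable genes kept, and the part of this cluster in the reversal was not tested. The ratios of *Neurod1*, *Foxa1* and *Foxa3* in enteroendocrine-like cells had no value with variable genes by mean and dispersion, which form no such cluster. In the cycling class *Spdef*, *Gfi1*, *Pou2f3* and *Neurog3* had under 20 UMIs, and so no value, with variable genes by mean and dispersion, at resolution 1.6, with all variable genes kept and after integration, and *Pou2f3* and *Neurog3* also with each cell's own marker scores. Among the class ratios under other settings, 180 stayed within the counting interval, 7 moved out of it and 2 reversed. A single library per genotype limits every comparison, since mouse-to-mouse variation cannot be told apart from genotype.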
